A study of Mus musculus with 6 samples.

Results

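The windows described here are stretches of 1000 bases of the mouse genome in which DNA methylation was higher in multipotent progenitors than in long-term haematopoietic stem cells, in both genotypes of the study. A window was measured where at least 5 cytosine positions of CpG sites, counted per strand, were covered in all 6 libraries, and its level is the mean percent methylation of those positions. Members were selected on measured values: the level in multipotent progenitors (MPP) had to exceed that in long-term stem cells (LT-HSC) by at least 10 percentage points in Control mice and also in knock-in mice. This gave 355 of 25114 windows on chromosomes 1 to 19 and X. The gain from LT-HSC to MPP is therefore a description of how the windows were chosen and carries no test. The level in short-term stem cells (ST-HSC) was not used by the rule.

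Methylation was read by enhanced reduced representation bisulfite sequencing, in which restriction fragments rich in CpG sites are treated with bisulfite and the share of cytosines that stay unconverted is counted. The cells were sorted from pooled bone marrow of male C57BL/6 mice aged 7 to 10 months, 6 mice to a group: LT-HSC were Lin- Sca+ Kit+ CD150+ CD48-, ST-HSC were Lin- Sca+ Kit+ CD150+ CD48+, and MPP were Lin- Sca+ Kit+ CD150-. Control mice had the genotype IDH1+/+ VavCre+ and the knock-in mice, called KI below, had IDH1+/lsl VavCre+, so that both groups carried Cre recombinase driven by the blood-cell promoter Vav and only KI carried the Cre-dependent Idh1 knock-in allele. Each genotype and cell type is 1 library, so differences of at least 10 points are called by size, and they compare libraries. Coverage summed over positions was 38284759 to 53884467 in the libraries. The median member held a summed coverage of 288 to 401 in a library, with a lowest value of 50 and a highest of 3577. A read that covers several positions counts at each of them in these sums. No lane held libraries of both genotypes, per the deposited names, which means that genotype and lane cannot be told apart. RNA was not measured, and of the sorting markers only a window at Kit could be read, at 0.638% to 4.21% methylation in the 6 libraries, so the cell identities rest on the sort.

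Long-term stem cells renew themselves for life, short-term stem cells do so for a limited time, and multipotent progenitors still form all blood lineages but no longer sustain the graft. Methyl groups are put on CpG sites by the DNMT enzymes and are oxidised by the TET enzymes, which need 2-oxoglutarate, the product of IDH1. Genes that hold the stem cell state, such as those of the HoxA cluster and several zinc finger repressors, carry enhancers and promoters whose methylation is known to change during differentiation.

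Promoter sequences are shown for 3 members in which the measured CpG sites lie just before a gene start, because there the reader can see which CpGs make up a window's value. Of the 355 members, 31 held a gene start of the RefSeq promoter table, and in 5 of these windows at least 3 measured positions fell in the promoter. The 3 with the most such positions are printed. In the promoter of Gnas, whose window gained 10.2 points in Control, the 4 measured positions went the other way in Control, from between 25.3% and 51.3% in LT-HSC to between 8.16% and 16.7% in MPP. Each sequence covers the 250 bases before the start, 5′ to 3′ on the gene's strand, in build GRCm38.p6, with the measured CpGs in capitals. Lhcgr, the receptor for luteinising hormone and chorionic gonadotropin, lies on the minus strand (chr17:88792015-88792264). Palm3 encodes a protein of the paralemmin family and lies on the plus strand (chr8:84021224-84021473). Acta1, skeletal muscle actin, lies on the minus strand (chr8:123894776-123895025).
Lhcgr: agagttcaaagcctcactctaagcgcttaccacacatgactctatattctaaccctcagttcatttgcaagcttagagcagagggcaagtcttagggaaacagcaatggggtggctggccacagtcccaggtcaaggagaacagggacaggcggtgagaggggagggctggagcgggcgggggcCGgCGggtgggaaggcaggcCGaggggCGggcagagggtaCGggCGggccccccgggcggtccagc
Palm3: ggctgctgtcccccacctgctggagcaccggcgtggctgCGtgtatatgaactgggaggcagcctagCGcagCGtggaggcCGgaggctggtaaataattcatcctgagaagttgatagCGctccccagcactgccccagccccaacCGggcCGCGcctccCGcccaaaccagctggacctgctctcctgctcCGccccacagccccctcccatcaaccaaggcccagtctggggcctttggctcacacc
Acta1: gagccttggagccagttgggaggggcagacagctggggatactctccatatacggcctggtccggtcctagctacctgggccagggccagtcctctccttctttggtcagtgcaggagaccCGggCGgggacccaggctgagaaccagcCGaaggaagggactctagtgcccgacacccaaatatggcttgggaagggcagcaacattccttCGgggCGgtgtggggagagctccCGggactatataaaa

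All 6 measured positions of the Lhcgr window lie in this promoter, between 22 and 66 bases before the start, and all 6 were higher in MPP in both genotypes. The window level was 10.2% in Control LT-HSC, then 14.7% in ST-HSC and 73.1% in MPP, and 1.14% in KI LT-HSC, then 29.4% in ST-HSC and 56.2% in MPP. At the position 66 bases before the start Control LT-HSC stood at 7.41%, ST-HSC at 14.3% and MPP at 100%, and the KI libraries at 0%, 42.1% and 58.2%, from 19 to 55 reads. The positions share reads, so they are not independent of each other. In the Acta1 promoter the window gained 46.6 points in Control and 17.5 in KI, but the single positions differed: the position 32 bases before the start was at 0% in both Control LT-HSC and Control MPP. In the Palm3 promoter the window gained 32.4 points in Control and 26.0 in KI.

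The promoters that start in members held few CpGs. Among 34 promoters of 300 bases (250 before and 50 after the start) that start in a member, the median number of CG pairs was 14.5, against 24 in all 10565 promoters that start in a measured window and 14 in the 219 that start in a window with a mean level of 20% to 80%. The ratio of observed to expected CG was above 0.6 in 38.2% of the members' promoters, in 82.7% of all of them and in 41.1% of those in partly methylated windows. The letters CCGG, which read the same on both strands and contain CG, the site of the enzyme that usually cuts such libraries, were present in 82.4%, 91.8% and 84.9%. The members' promoters were thus poorer in CG than the measured promoters as a whole, and close to those of other partly methylated windows.

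**Figure D1:**
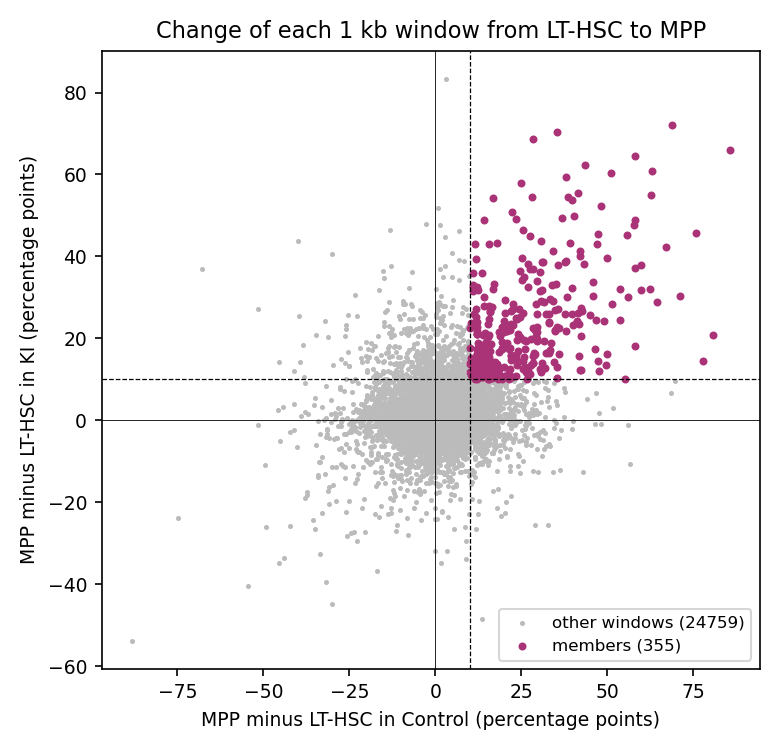
Difference between MPP and LT-HSC in Control (x axis) and in KI (y axis), in percentage points, 1 point per window. The 355 members fill the corner beyond the dashed lines at 10 points, and the other 24759 windows lie mostly near 0.

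A gain of at least 10 points was seen in 1186 windows in Control (4.72% of all windows) and in 938 in KI (3.73%), and in both genotypes in 1.41%. Among members the median gain was 21.9 points in Control, from 10.0 to 85.7, and 18.9 points in KI, from 10.0 to 72.0. In 126 members it was at least 20 points in both genotypes, in 50 at least 30, and in 19 at least 40. The smaller of the 2 gains was under 12 points in 75 members, which therefore sit close to the threshold. Just inside it were a window in Gata2 (10.02 points in Control), one in Tulp2 (10.02 in KI) and one in Fgfr3 (10.01 in KI). Just outside were windows near Spin2-ps1 (9.99 in KI), at Dmrt1 (9.97 in KI) and at Rara (9.89 in KI). The opposite change, a fall of at least 10 points in both genotypes, was found in 90 windows.

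Most members were partly methylated on average: 273 of 355 (76.9%) had a mean level over the 6 libraries between 20% and 80%, against 6.75% of all windows. Comparisons with all windows therefore mix in many that are near 0% in every library and cannot gain much, and the 1694 partly methylated windows are given as a nearer comparison below. Only 6 members went from under 20% in both LT-HSC libraries to over 50% in both MPP libraries, and 72 ended above 80% in both MPP libraries. Members were also small in positions, with a median of 7 and a range of 5 to 46, and none of the 1628 windows with 50 or more positions was a member. The partly methylated windows had the same median of 7, and only 15 of the 1628 were partly methylated.

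The HoxA cluster held 5 members, and with 1 at Hoxc13 the Hox clusters had 6 members among 96 measured windows (6.25%, against 1.41% of all windows). Of their 11 partly methylated windows 5 were members, against 16.1% of all partly methylated windows. Hox genes encode homeodomain factors, and those of the HoxA cluster are expressed in stem cells and progenitors of the marrow. The window at the start of Hoxa5 (chromosome 6, 52204001 to 52205000, 26 positions) was at 18.2% in Control LT-HSC, then 40.1% in ST-HSC and 76.4% in MPP, and at 23.7%, 78.6% and 88.1% in KI. Of its 26 positions, 23 were higher in MPP in both genotypes. The LT-HSC values of the genotypes lie close together, while ST-HSC lies nearer to LT-HSC in Control and nearer to MPP in KI. The neighbouring window (52203001 to 52204000, 6 positions) read 23.95%, 35.0% and 77.6% in Control and 60.6%, 83.2% and 92.8% in KI, and here KI already stood higher in LT-HSC. Another window, at Hoxa6, (52209001 to 52210000, 5 positions) read 10.2%, 16.6% and 35.4% in Control and 14.5%, 40.5% and 48.8% in KI. These windows also lie within the gene models of Hoxa3 and the antisense gene Hoxaas3, so a window cannot be given to 1 gene alone.

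Farther along the cluster, a window inside Hoxa3, at an end of Gm15050 and of LOC115490409 (52175001 to 52176000, 30 positions) was at 23.0%, 33.6% and 60.01% in the 3 Control libraries, in the order LT-HSC, ST-HSC, MPP, and at 34.1%, 69.3% and 83.4% in KI. All 30 positions were higher in MPP in KI and 26 in Control. The window at 5730596B20Rik (52177001 to 52178000, 7 positions) differed from these: ST-HSC, at 76.6% in Control and 90.0% in KI, stood within 10 points below the MPP value of 84.9% in Control and above the MPP value of 79.1% in KI. At Hoxc13 on chromosome 15 the levels stayed low, from 7.17% in LT-HSC to 23.7% in MPP in Control and from 12.7% to 25.6% in KI. In the other homeobox and developmental factors, 3 of 578 windows (0.519%) were members, at Gbx2, Hlx and Cdx1. Of the 17 partly methylated windows of this list 2 were members (11.8%), against 16.1% of all partly methylated windows. The Gbx2 window gained 34.7 points in Control and 22.1 in KI, and the Hlx and Cdx1 windows gained 17.4 and 20.2 points in Control and 11.3 and 10.9 in KI. Most windows of that list did not gain: its median gain over all windows was 0.06 points in Control and 1.52 in KI, and over every measured window it was -0.04 and 1.06.

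Genes known for stem cell function held 13 members among 133 windows (9.77%), at 8 of 44 measured genes, and in partly methylated windows 8 of 16, against 16.1% of all partly methylated windows. The medians over all windows of the list were 0 points in Control and 0.97 in KI, so most windows of these genes did not gain. The list shares Gfi1, Gfi1b, Zfpm1 and Gata3 with the myeloid, erythroid or lymphoid lists. Several of the 13 members lie in the same genes, Gata2 and Zfpm1. All gene lists were chosen with earlier results of these data known, so the shares of lists are a description and no test. Msi2 encodes an RNA-binding protein that sustains stem cells. Its window (chromosome 11, 88468001 to 88469000, 6 positions) was at 16.8% in Control LT-HSC, then 32.7% in ST-HSC and 92.7% in MPP, and at 40.9%, 75.5% and 86.6% in KI. Prdm16, a zinc finger factor needed by stem cells, read 10.3%, 16.2% and 51.9% in Control and 8.59%, 35.8% and 64.0% in KI (chromosome 4, 154544001 to 154545000, 6 positions). In both genes the gain was large in both genotypes, and in KI the ST-HSC library had covered more of it.

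Gfi1 and Gfi1b are related transcriptional repressors that restrain stem cell cycling and direct myeloid and erythroid fates. The Gfi1 window (chromosome 5, 107721001 to 107722000, 19 positions) was at 8.69%, 24.9% and 47.4% in Control and at 14.6%, 43.6% and 69.0% in KI, and all 19 positions were higher in MPP in both genotypes. The Gfi1b window (chromosome 2, 28620001 to 28621000, 6 positions) was at 28.0%, 12.96% and 63.2% in Control and at 37.7%, 47.3% and 71.0% in KI. ST-HSC in Control was thus lower than LT-HSC at Gfi1b and higher at Gfi1. Zfpm1 encodes FOG1, the cofactor of GATA factors, and had 3 members. The window from 122309001 on chromosome 8 (5 positions) went from 0% through 6.24% to 60% in Control. In KI it went from 0.74% through 14.1% to 32.6%. The first Control value is 0 methylated among 259 calls summed over the 5 positions, which can share reads. Of these positions, 3 were higher in MPP in both genotypes. The other Zfpm1 members, from 122294001 and 122296001, gained 16.97 and 11.6 points in Control and 33.2 and 43.0 in KI.

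Gata2, the GATA factor of stem cells and early progenitors, stood in the group with the most members. Groups were formed of members within 10000 bases of each other, which left 321 of the 355 alone and put 34 into 14 groups. Between 88190001 and 88205000 on chromosome 6, at Gata2 and the lncRNA gene Gm38708, 5 of 10 measured windows were members, a span that begins and ends with a member. Of 9 measured windows at Gata2 itself, 4 were members. Their levels differed widely: the window from 88204001 rose from 44.0% in Control LT-HSC to 83.6% in MPP and from 66.5% to 92.4% in KI, while the window from 88202001 rose from 4.27% to 14.3% and from 1.96% to 19.7%. The window from 88200001 (13 positions) read 5.46%, 12.5% and 25.9% in Control and 11.2%, 11.5% and 37.5% in KI, so that KI ST-HSC lay at the LT-HSC level. Of its 13 positions, 6 were higher in MPP in both genotypes, and in Control MPP their median was 5.88%, from 0% to 100%. In the window from 88202001 it was 2 of 5 positions. Mn1, a transcriptional coregulator whose overexpression causes leukaemia in mice, had 3 members among 6 measured windows, side by side on chromosome 5 (111418001 to 111421000, 93 positions). The window with 36 positions read 28.6%, 32.3% and 66.3% in Control and 49.2%, 64.5% and 87.8% in KI. That with 39 positions read 18.6%, 28.1% and 34.2% in Control and 33.0%, 54.3% and 76.2% in KI, and so gained 43.2 points in KI against 15.6 in Control. All 3 windows were higher in KI than in Control in each cell type.

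Runx3, a RUNX factor of T cells and NK cells, had 2 members. The window from 135175001 on chromosome 4 (17 positions) was at 28.8% in Control LT-HSC, then 46.0% in ST-HSC and 86.7% in MPP, and at 39.8%, 82.5% and 87.5% in KI, where ST-HSC lay within 5.07 points of MPP. The window from 135140001 stayed low, from 0.54% to 16.98% in Control and from 8.70% to 23.0% in KI. The other member of the lymphoid list, at Gata3, started high, at 83.6% in Control and 81.1% in KI, and ended at 100% and 92.0%. Members of the lymphoid list were 3 of 74 windows (4.05%), and 1 of 7 partly methylated ones (14.3%), against 1.41% and 16.1% over all windows. Of the myeloid list 2 of 27 windows were members (7.41%), and 2 of 4 partly methylated ones, at Gfi1 and at Prtn3, the gene of the granule protease proteinase 3, which gained 11.8 and 14.1 points. Of the erythroid and megakaryocyte list 4 of 39 were members (10.3%), and 3 of 4 partly methylated ones, all at Gfi1b and Zfpm1.

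Markers of other cells of the marrow were represented by 2 of 42 windows of the endothelial and stromal list (4.76%), and by 1 of 3 partly methylated ones. These lists hold few partly methylated windows. Kdr, the VEGF receptor of endothelial cells, read 27.5%, 24.2% and 74.8% in Control and 33.6%, 52.0% and 79.1% in KI (8 positions, all higher in MPP in both genotypes). Pdgfrb, a growth factor receptor of stromal cells, gained 21.1 points in Control and 10.8 in KI from high starting levels of 69.9% and 85.9%. No window of the list of DNA methylation and IDH genes (52 windows) or of germline genes (19 windows) was a member, which at a share of 1.41% over all windows says nothing about these lists. The polycomb list had 1 of 61, at Epop, with gains of 26.0 and 19.6 points, and the clustered protocadherins had 1 of 20, inside the gamma cluster, with 26.8 and 11.5 points. In partly methylated windows these were 1 of 4 and 1 of 13. Of the imprinted genes, whose 2 parental copies are methylated differently, 3 of 54 windows (5.56%) were members, at H13, Impact and Gnas, and 2 of the 26 that were partly methylated (7.69%), against 16.1% of all partly methylated windows. At Gnas, ST-HSC was the highest cell type in both genotypes (24.9%, 45.2% and 35.1% in Control, 21%, 52.4% and 43.6% in KI). At Impact, Control was above KI in LT-HSC (46.1% against 18.97%) and MPP (68.1% against 42.4%).

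**Figure D2:**
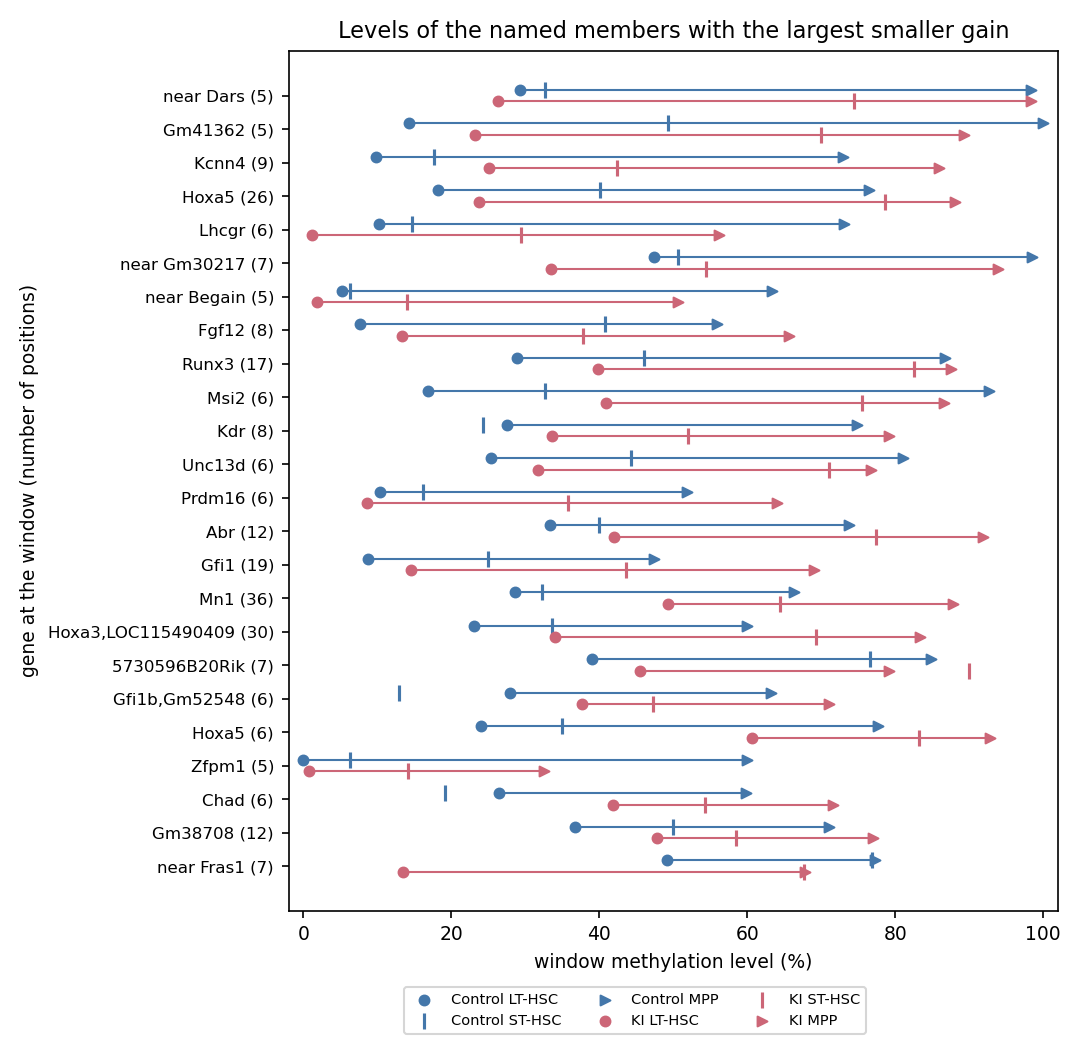
Levels of 24 named members, ordered by the smaller of the 2 gains, with the number of positions in brackets. In each row a circle marks LT-HSC, an upright bar ST-HSC and an arrowhead MPP, with Control in blue and KI in red, and each symbol is 1 library. The red bars mostly lie farther to the right along their lines than the blue bars.

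Members with the largest gains were often outside these lists. The window with the largest smaller gain, between genes and nearest to Dars (chromosome 1, 128440001 to 128441000, 5 positions), read 29.3%, 32.6% and 98.3% in Control and 26.3%, 74.4% and 98.3% in KI. A window inside the predicted gene Gm41362 on chromosome 15 went from 14.3% to 100% in Control and from 23.2% to 89.2% in KI. Kcnn4, a calcium-activated potassium channel of blood cells, had a window of 9 positions that were all higher in MPP in both genotypes, with window levels of 9.78%, 17.6% and 72.9% in Control and 25.1%, 42.4% and 85.9% in KI. Unc13d, needed for the release of cytotoxic granules, read 25.3%, 44.2% and 81.0% in Control and 31.6%, 71.0% and 76.8% in KI. In the window near Begain the level in ST-HSC, 6.25% in Control and 13.97% in KI, was nearer to the LT-HSC levels of 5.26% and 1.82% than to the MPP levels of 63.3% and 50.6%. Of its 5 positions, 3 were higher in MPP in both genotypes. Fgf12, a fibroblast growth factor homologue, was an exception in ST-HSC, with 68.6% of the gain reached in Control and 46.7% in KI. The window near Gm30217 gained 51.0 and 60.5 points. At Abr, a regulator of small GTPases, a window at a gene start with 12 positions, all higher in MPP in both genotypes, gained 40.4 and 49.96 points.

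The members with the most positions had smaller gains than these. Arhgap9, a regulator of small GTPases in blood cells, had 46 positions and read 8.81%, 23.4% and 46.6% in Control and 18.8%, 27.0% and 44.6% in KI. Zfp316, with 44 positions, gained 26.9 and 12.8 points. Hcn2, a pacemaker channel, with 42 positions, gained 11.5 and 13.8 points on levels near 80%, and Vwa1, with 37, gained 13.7 and 10.6. When methylated and unmethylated reads were pooled in place of the mean over positions, Arhgap9 and Zfp316 still passed the rule and Hcn2 and Vwa1 did not. Of the other windows named above, those at H13, Prtn3, Hlx, Cdx1, Gnas, Tulp2 and the Gata2 window from 88202001 also did not pass on pooled reads. With at least 20 reads required at each position, 31 of the 59 windows chosen by the naming rule were no longer measured, so their values rest on shallower positions. They include the windows near Dars, Begain and Gm30217, those at Gm41362, Lhcgr, Fgf12, Prdm16, Gfi1, Gfi1b, Hoxc13, H13, Epop, Gata3 and Gnas, the Hoxa windows from 52175001 and 52203001, the Gata2 windows from 88200001 and 88202001 and the Zfpm1 window from 122309001. Of windows named further below, those at Chad, 4930487H11Rik, Spred2, Anp32a, LOC115486519 and Gm38884 were also no longer measured. The same held for the window near Fras1 and the Nfix window from 84784001. The windows at Impact, Zfp316, Cdx1 and Vwa1 were measured and did not pass.

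Within members the change was shared by most positions. Of 3270 shared positions in members, 2169 (66.3%) were higher in MPP in both genotypes, against 8.31% of all shared positions, and in 49 members every position was. In 68 members under 50% of the positions were, so their mean gain came from a minority of positions. Among these were the Gata2 windows from 88200001 (6 of 13) and 88202001 (2 of 5). The windows at Prtn3 (2 of 5), Hlx (2 of 7), Cdx1 (6 of 18), Hcn2 (16 of 42) and Vwa1 (15 of 37) were others. So were the protocadherin window (3 of 7) and the Fgfr3 window from 33724001 (2 of 5). Where a member held at least 3 positions on each strand (170 members), the mean was higher in MPP on both strands in both genotypes in 138 and by at least 10 points on both strands in both genotypes in 66. These counts use the values of the rule and describe its spread within windows.

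Positions of the same windows that were not covered in all 6 libraries played no part in the selection, though neighbouring positions can lie on the same reads. They come from the same LT-HSC and MPP libraries that the rule used. In Control, 82 members had at least 3 positions of this kind covered in both LT-HSC and MPP, and 43 of them (52.4%) gained at least 10 points there, against 6.20% of 9796 windows and 27.1% of 354 partly methylated windows that are not members. In KI it was 51 of 87 (58.6%) against 4.99% of 11583 and 22.2% of 365. Of all 671 such positions of members in Control, 53.5% were higher in MPP, with a median gain of 6.24 points. Of 718 in KI, 70.1% were higher, with a median of 13.8 points. A further look at the same measure in libraries not used for a choice takes windows chosen in 1 genotype and reads them in the other. Of the 1186 windows gaining in Control, 355 (29.9%, Wilson 95% interval 27.4% to 32.6%) gained at least 10 points in KI, against 3.73% of all windows and 31.9% of partly methylated ones, and 40 fell by at least 10. Of the 938 chosen in KI, 37.9% (34.8% to 41.0%) gained in Control, against 4.72% and 32.1%, and 108 fell. Among partly methylated windows, 50.3% of the 543 that gained in Control also gained in KI, against 23.3% of the 1151 that did not gain in Control, and 50.5% of the 541 that gained in KI also gained in Control, against 23.4% of 1153. Partly methylated windows were set by the mean over all 6 libraries, so here the libraries read had a part in the choice. The share grew with the size of the gain used for choosing: in KI it was 19.3% for windows with a Control gain of 10 to under 20 points, 41.2% for 20 to under 30, and 69.7% for 30 or more. In Control it was 29.0%, 47.3% and 74.6% for the same steps of the KI gain. Windows with a large gain in 1 genotype were thus mostly also members, and most windows with a gain of 10 to 20 points were not. The intervals treat windows as separate and cover counting error only.

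**Figure D3:**
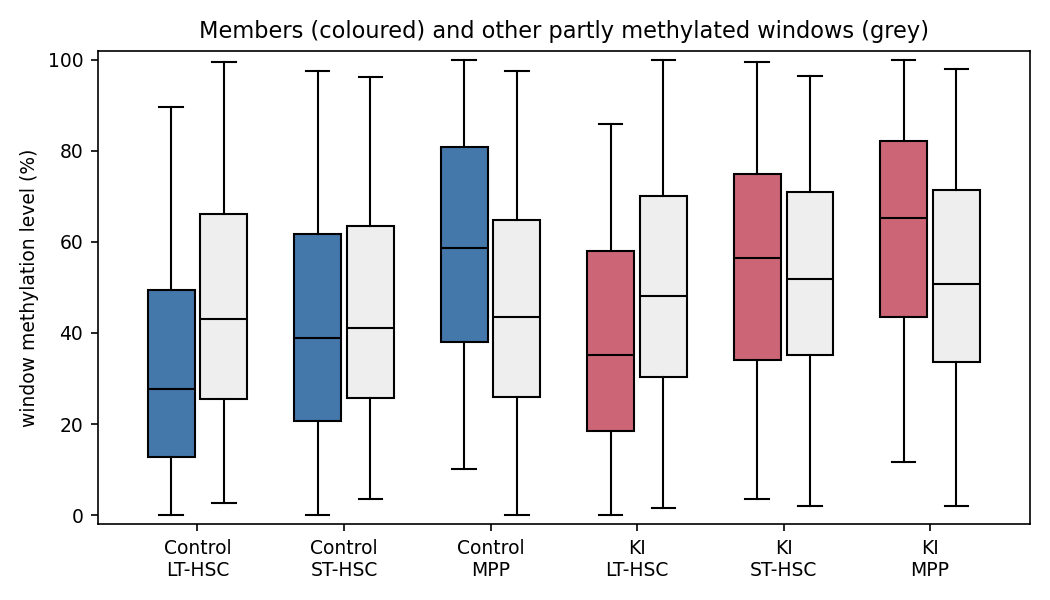
Window methylation level in each library for the 355 members (coloured) and for the 1421 other windows with a mean level of 20% to 80% (grey). Lines in the boxes are medians, boxes span the quartiles and whiskers the full range over windows. Member medians climb from 27.8% to 58.6% in Control and from 35.1% to 65.4% in KI, with ST-HSC at 38.9% and 56.4%, while the grey medians move little.

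In ST-HSC the members stood between the other cell types, nearer to LT-HSC in Control and nearer to MPP in KI. The median level of the members was 27.8% in Control LT-HSC, then 38.9% in ST-HSC and 58.6% in MPP, and 35.1%, 56.4% and 65.4% in KI. The ST-HSC level was above LT-HSC and below MPP in 270 members in Control, in 258 in KI and in 194 in both. The median share of the gain already present in ST-HSC was 33.1% in Control and 68.5% in KI, and it was larger in KI in 264 of 355 members (74.4%). At least 50% of the gain was present in 116 members in Control and in 230 in KI. Differences between ST-HSC and LT-HSC share the LT-HSC library with the rule, so low values in that library raise both. Differences between MPP and ST-HSC share the MPP library with the rule, so high values in that library raise both.

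Counted by size, ST-HSC exceeded LT-HSC by at least 10 points in 141 members in Control (39.7%, against 2.03% of all windows and 17.6% of partly methylated ones) and in 236 in KI (66.5%, against 3.04% and 28.3%). MPP exceeded ST-HSC by at least 10 points in 234 members in Control (65.9%, against 4.37% and 28.5%) and in 131 in KI (36.9%, against 1.75% and 14.4%). The larger count thus fell on the step from ST-HSC to MPP in Control and on the step from LT-HSC to ST-HSC in KI. In Control 156 members had an ST-HSC level within 10 points of LT-HSC and not of MPP, and 68 had the reverse. In KI these numbers were 61 and 155. These shares were close to those of all windows that gained in the genotype, which include the members. In Control 43.9% of members and 45.4% of 1186 windows were near LT-HSC, and 19.2% and 17.6% near MPP. In KI 17.2% and 18.3% of 938 were near LT-HSC, and 43.7% and 41.5% near MPP. Both patterns met in 64 members, near LT-HSC in Control and near MPP in KI, among them the Runx3 window from 135175001, where 29.7% of the gain was present in Control ST-HSC and 89.4% in KI. The opposite combination was found in 11 members. Other places of ST-HSC differed more from all windows that gained in the genotype. ST-HSC lay between, at least 10 points from both, in 19.2% of members against 8.6% in Control, and in 19.4% against 10.1% in KI. It lay within 10 points of both in 13.5% against 25.9% in Control, and in 16.1% against 27.5% in KI.

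The same contrast between genotypes was present outside the members. In partly methylated windows that are not members and changed by at least 10 points in the genotype read, the median share of the change present in ST-HSC was 41.1% in Control (579 windows) and 65.6% in KI (425 windows). In the 90 windows that fell from LT-HSC to MPP in both genotypes it was 51.4% and 68.2%, and it was larger in KI in 56 of 90. A larger share in KI ST-HSC was therefore also seen in windows outside the members. With 1 ST-HSC library for each genotype, the genotype, the pool of mice and the library cannot be told apart.

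**Figure D4:**
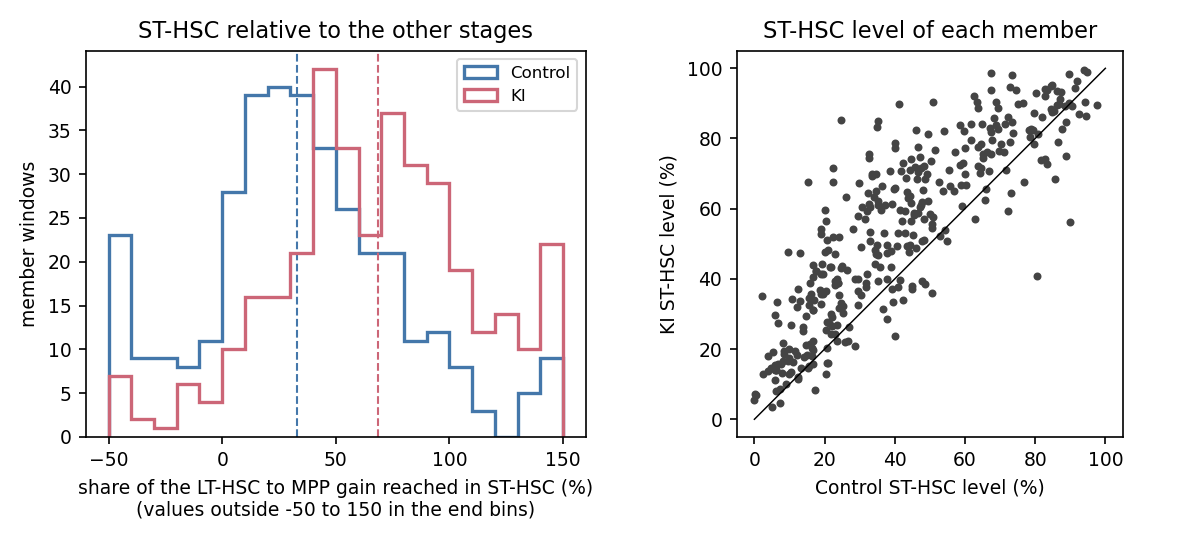
Left: number of members by the share of their LT-HSC to MPP gain reached in ST-HSC, in percent, for Control (blue) and KI (red), with medians of 33.1% and 68.5% as dashed lines. Right: ST-HSC level of each member in Control (x axis, percent) and KI (y axis, percent), where 299 of 355 points lie above the diagonal.

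Windows chosen in 1 genotype alone were also read in ST-HSC of the other genotype, whose libraries had no part in the choice. In the 1186 windows chosen in Control, KI ST-HSC exceeded KI LT-HSC by at least 10 points in 292 (24.6%), against 3.04% of all windows and 28.3% of partly methylated ones, and was lower by that much in 48. In the 938 windows chosen in KI, Control ST-HSC exceeded Control LT-HSC by at least 10 points in 168 (17.9%), against 2.03% and 17.6%, and was lower in 106. Many of these windows were not partly methylated. Among partly methylated windows, the KI call was met by 42.7% of 543 that gained in Control and by 21.6% of 1151 that did not, and the Control call by 25.9% of 541 that gained in KI and by 13.7% of 1153 that did not. Here too the libraries read had a part in setting which windows are partly methylated. The median levels of the 1186 windows were 37.1%, 48.3% and 51.2% in KI from LT-HSC to MPP. Those of the 938 windows were 27.6%, 32.7% and 41.3% in Control. The KI values rose mainly to ST-HSC and the Control values mainly to MPP.

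In 1 named window ST-HSC exceeded MPP by at least 10 points in both genotypes. At 4930487H11Rik on chromosome 1 (62795001 to 62796000, 5 positions) ST-HSC was at 72.2% and MPP at 37.9% in Control, and at 59.5% and 46.3% in KI, with LT-HSC at 12.1% and 11.2%. The KI ST-HSC value there rests on a coverage of 54 summed over the 5 positions. No member was at least 10 points below LT-HSC in ST-HSC in both genotypes. In Control 10 members were that far below and in KI 1.

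KI exceeded Control in ST-HSC more often than in the other cell types. KI was at least 10 points above Control in 117 members in LT-HSC (33.0%, against 3.76% of all windows and 32% of partly methylated ones), in 188 in ST-HSC (53.0%, against 5.07% and 44.4%) and in 97 in MPP (27.3%, against 5.45% and 38.1%). Taking the cell types in the same order, KI was at least 10 points below Control in 28, 9 and 41 members (7.89%, 2.54% and 11.55%). The shares of all windows were 1.63%, 0.665% and 1.74%, and those of partly methylated ones 11.04%, 4.31% and 10.68%. The shares of members with lower KI values were thus near those of partly methylated windows, a set that includes 273 of the members. The median difference of KI minus Control over members was 5.17 points in LT-HSC, then 10.7 in ST-HSC and 2.01 in MPP, and 3.84, 7.82 and 6.17 in the partly methylated windows that are not members. A KI excess was thus also present in the other partly methylated windows, at lower medians in LT-HSC and ST-HSC and a higher one in MPP. The LT-HSC and MPP libraries were used in the selection, and only the ST-HSC values were not. KI was above Control in all 3 cell types in 153 members and below in all 3 in 20.

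Taken over the 3 cell types as blocks in limma, no member passed an adjusted p of 0.05 for KI against Control (Benjamini-Hochberg over all 25114 windows, lowest adjusted p among members 0.422). Over all windows 2 passed (0.00796%). At an unadjusted p under 0.05 there were 101 members (28.5%), 94 higher and 7 lower in KI, against 20.1% of the other partly methylated windows and 6.98% of all windows. The rule used the LT-HSC and MPP libraries and asked for a rise in both genotypes. This can lower the spread that the fit measures, so the share in members cannot be read against the others. The median log2 ratio for KI against Control was 0.495 in members and also above 0 over all windows, at 0.274. The model takes the 3 cell types as replicates of the genotype, and whether 1 pool of mice gave all 3 was not given in the sources used here.

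Because no member passed, the 3 members with the highest and the 3 with the lowest mean difference are given as a description. None of them was still measured with at least 20 reads required at each position. Spred2, an inhibitor of Ras signalling, read 10.6%, 24.6% and 43.8% in Control and 51.6%, 85.2% and 68.3% in KI, a mean difference of 42.0 points. Anp32a, an inhibitor of a protein phosphatase, read 31.7%, 45.7% and 46.6% against 77.7%, 71.8% and 92.3%. Nfix, a nuclear factor that supports stem cell engraftment, read 8.22%, 21.1% and 24.5% against 49.7%, 48.2% and 68.2%. In each of these the KI library was above the Control library in all 3 cell types. The reverse held at LOC115486519, which read 74.8%, 90.0% and 96.9% in Control and 43.1%, 56.2% and 66.4% in KI, and at Gm38884, which read 89.6%, 94.6% and 100% against 57.5%, 86.4% and 81.2%. The window near Fras1 was also lower in KI in each cell type (49.2%, 76.8% and 77.3% against 13.4%, 67.6% and 67.8%). Coverage summed over positions was as low as 96 at Nfix in Control LT-HSC and 50 at LOC115486519 in Control ST-HSC.

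Members lay in gene bodies more often, and at gene starts less often, than the measured windows as a whole. A window was placed at a gene end when it lay within 1000 bases of the start or end of a RefSeq gene, in a gene body when it overlapped a gene elsewhere, and between genes otherwise. Of the members 123 (34.6%) were at gene ends, 166 (46.8%) in gene bodies and 66 (18.6%) between genes, against 67.0%, 22.02% and 10.9% of all windows. Partly methylated windows were at 39.5%, 39.3% and 21.3%, much nearer to the members. At gene starts, on the chromosomes with promoter entries, were 69 of 346 members (19.9%), 52.6% of all windows and 24.6% of partly methylated ones. Median gains were lower between genes, at 22.1, 22.1 and 18.4 points in Control and 18.9, 21.5 and 14.6 in KI at gene ends, in bodies and between genes. Exons and introns were not analysed here.

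By chromosome, chromosome 8 had the highest share of its windows as members (33 of 1455, 2.27%) and X the lowest (1 of 336, 0.298%). Chromosome 13 held 3 of 932 (0.322%) and chromosome 3 held 6 of 1092. Small windows were members more often, with 2.75% of those with 5 positions and 0.395% of those with 20 to 49. Within partly methylated windows this share hardly moved, at 16.0% with 5 positions and 17.9% with 20 to 49. Only 15 partly methylated windows had 50 or more positions, and none was a member. Hairpins of Gm51277 and Mir1936 were the only entries of the RefSeq miRNA table that overlapped members.

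**Figure D5:**
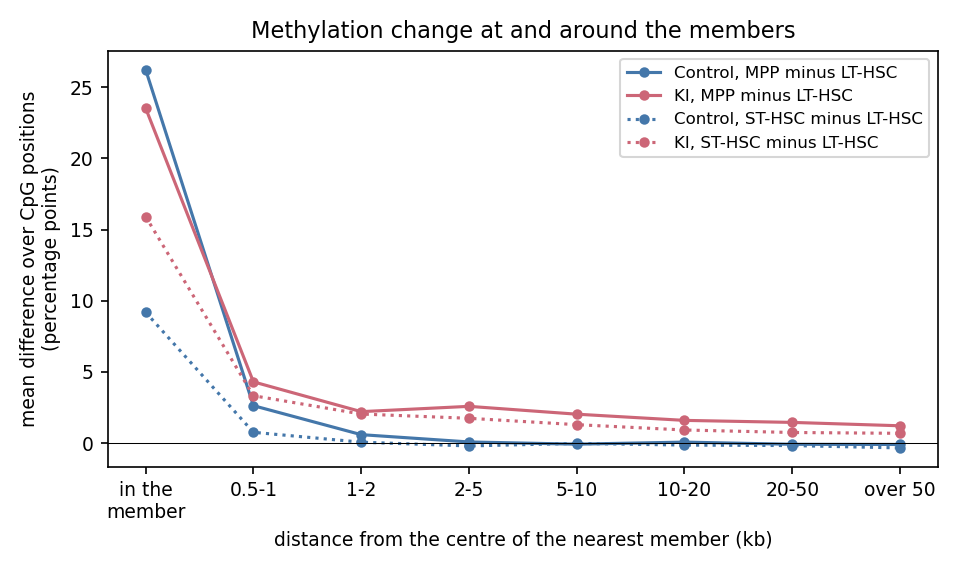
Mean difference over CpG positions, in percentage points (y axis), inside members and at growing distance in kb from the centre of the nearest member (x axis). Solid lines show MPP minus LT-HSC and dotted lines ST-HSC minus LT-HSC, in Control (blue) and KI (red). Outside members the means drop to 2.64 and 4.31 points within 1 kb.

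Mean gains were small at positions outside members. Inside members the mean gain over positions was 26.2 points in Control and 23.5 in KI. At positions outside members, 500 to 1000 bases from a member's centre, it was 2.64 and 4.31 points, and at 2000 to 5000 bases 0.09 and 2.59. Beyond 50000 bases it was -0.09 in Control and 1.23 in KI, the level of the genome at large in these libraries. Positions beside a member were outside it by the rule, so part of this step is set by the choice of windows. At 500 to 1000 bases the mean LT-HSC level was also lower, at 18.8% in Control and 20.6% in KI. Inside members it was 32.3% and 38.9%. Of 97 measured windows directly beside a member, 18 (18.6%) were members themselves, against 1.41% of all windows and 16.1% of partly methylated ones.

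Other groups of neighbouring members were found at genes with further measured windows. At Trim47, a ubiquitin ligase, 2 of 3 measured windows were members and another lay nearby (chromosome 11, 116099001 to 116109000), with median gains over the 3 members of 40.2 points in Control and 23.2 in KI. At Arhgef18, an activator of small GTPases, 2 of 3 measured windows were members, with medians of 42.6 and 42.8 points. Ltbp3, which binds latent TGF-beta, had 2 of 7, with 48.2 and 25.5 points. Fgfr3, a fibroblast growth factor receptor, had 2 of 4, with 35.8 points in Control and 11.4 in KI, and 1 of these was close to the threshold in KI. Nfix had 3 of 12, of which the neighbouring pair had medians of 19.02 and 20.3 points and the window from 84771001 gained 34.1 and 33.0 points.

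Among members at gene starts, Tubb4a, a beta tubulin, had 15 positions and read 16.2%, 22.3% and 43.9% in Control and 31.1%, 71.6% and 68.1% in KI. ST-HSC in KI therefore stood at the MPP level, while in Control it remained close to LT-HSC. Chad, which encodes the matrix protein chondroadherin, read 26.4%, 19.12% and 59.8% in Control and 41.8%, 54.3% and 71.5% in KI, with ST-HSC below LT-HSC in Control only. Over all 355 members the ST-HSC levels of the genotypes ran in parallel, with Pearson's r of 0.855 across windows, against 0.991 over all windows and 0.813 over partly methylated ones, while the shares of the gain reached in ST-HSC did so weakly (r of 0.122). Both are across windows that share libraries, and they describe these 6 libraries.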

How the data were processed

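The 6 libraries were made by enhanced reduced representation bisulfite sequencing from 10 ng of sorted DNA each, per the labels' protocols. Per the submitters' processing notes, Bismark 0.10.0, SAMtools 1.0, methylKit 0.9.1 and build mm10 were used. Their settings, duplicate removal and conversion were not given in the sources used here. For each position the authors deposited the coverage, a read count with a minimum of 10, and the percent of C and percent of T among those reads (per the file headers). Methylated reads were taken as coverage times percent and were whole at 100% of positions within 0.01%.

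Here 552183 positions covered in all 6 libraries on the 20 chromosomes used were averaged, unweighted, in windows of 1000 bases with at least 5 positions. The genotype was fitted over all windows with limma 3.58.1 (R 4.3.3) on log2 ratios (methylated over unmethylated reads), prior count 1, cell type as a block, after a check on simulated data. Python 3.11.15, pandas 2.3.3, numpy 2.4.6 and scipy 1.17.1 did the rest. Genes and promoters came from RefSeq tables of GRCm38.p6, the same build as mm10, and all 107768 measured positions that fell in a promoter entry lay on a CG. Intervals are Wilson 95% intervals and cover counting error only.

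The members and the 12 gene lists were chosen with earlier results of these data known. Named were the 12 members with the largest smaller gain (1 per gene), up to 6 per list, the 5 with the most positions, the longest groups, members whose ST-HSC lay 10 points outside the range in both genotypes, up to 6 with a gene start, 3 on each side of the threshold, and the 3 highest and 3 lowest by mean genotype difference. Alternatives were coverage, positions per window, pooled reads, merged strands, the threshold, the window grid, the distance to genes and settings of the limma fit. The values of 1 window are not reported here.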

Additional observations from a re-analysis of the deposited data

Results flagged for a closer look

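In 4 members reported here ST-HSC differed from LT-HSC by at least 10 points in opposite directions in the genotypes. The difference between the genotypes was not tested, since each value is the difference of 2 libraries. ST-HSC minus LT-HSC near Csta3 was -13.37 points in Control and 10.9 in KI. Near Gm36386 it was -15.14 and 17.74 points over 12 positions. At Gm13205, with 16 positions, it was -10.53 in Control and 17.26 in KI. The window at Adam11 had the reverse order, with 19.51 points in Control and -17.88 in KI. In 3 of these 4 windows Control was the genotype with the lower ST-HSC value.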

How the results depend on the processing

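The number of members depends on the filters: 190 with at least 20 reads per position, 92 with at least 10 positions, 876 at a threshold of 5 points and 126 at 20 points, against 355. Of the 355, 181 were still measured at 20 reads and 159 of these were members, and 276 were members on pooled reads (375 in all), 313 with merged strands (331 in all). Windows of few reads and positions therefore carry much of the count. The share of Control-gaining windows that also gained in KI was 33.58% with at least 10 positions and 33.51% at 20 points, and the reverse share 34.21% at 5 points and 43.15% at 20 points. Median ST-HSC minus LT-HSC moved with the threshold to 4.263 and 11.92 points in Control and 7.793 and 19.58 in KI at 5 and 20 points, by construction, and KI exceeded Control at each. With 2000 bases, 47.61% of members lay at gene ends, against 72.31% of all windows and 48.41% of partly methylated ones. Windows called for genotype numbered 0 on the percent scale, 0 without the LT-HSC libraries and 4 with at least 10 positions, none of them members. The samples carry no replicate numbers, and the genotype fit already pairs the libraries by cell type.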
